A study of Mus musculus with 12 samples.

Results

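The Bcl2 family of apoptosis regulators was followed through 10 genes: the anti-apoptotic Bcl2, Bcl2l1 and Mcl1, the BH3-only Bcl2l11, Bbc3, Pmaip1, Bid and Bad, and the pore-forming effectors Bax and Bak1. A gene was measured where the platform annotation gave it a probe set that names no other gene, which left 29 of the 45037 probe sets tested and 9 of the 10 genes. Bax had no probe set of its own and was not measured here. Where a gene had several probe sets, the one with the highest mean over the 12 arrays was its main probe set. The cells were B220+ B cells isolated with magnetic beads from the spleens of C57BL/6 mice that carry the transgene Tg(IghelMD4)4Ccg, an immunoglobulin transgene whose product binds hen egg lysozyme (HEL). All cultures received anti-CD40, IL21 and HEL, which the labels call signals derived from follicular helper T cells, for 1 or 3 days. At each time there were control cells, cells labelled as depleted of Jmjd2a and cells labelled as depleted of Jmjd2c, 2 histone demethylases, with 2 arrays in each of the 6 groups. The labels describe the depletion by siRNA in one field and by an shRNA virus in another, and give no age of the mice. They call the replicates biological without naming separate animals or cultures, so the p-values measure the spread between these arrays.

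Proteins of this family decide whether the outer mitochondrial membrane is opened during apoptosis. The anti-apoptotic members hold the effectors Bax and Bak1 in check. The BH3-only proteins bind the anti-apoptotic members, and some also engage the effectors directly, after which cytochrome c leaves the mitochondrion and caspases are activated. In B cells, Bcl2l11 (encoding Bim) is known for the removal of autoreactive and cytokine-deprived cells, Mcl1 for the survival of germinal centre B cells and plasma cells, and Bcl2l1 (encoding Bcl-xL) as a gene induced through CD40.

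The promoter windows of Bcl2l11 and Bcl2 are shown because Bcl2l11 had the widest range among the members and Bcl2 moved in the other direction in control cells. Each is the 250 bases before an annotated start of transcription, written 5′ to 3′ on the strand of the gene, from RefSeq on GRCm38.p6, with matches to the motifs searched in capitals. The Bcl2l11 window lies at chr2:128125788-128126037 on the plus strand, and the Bcl2 window at chr1:106714291-106714540 on the minus strand.
Bcl2l11: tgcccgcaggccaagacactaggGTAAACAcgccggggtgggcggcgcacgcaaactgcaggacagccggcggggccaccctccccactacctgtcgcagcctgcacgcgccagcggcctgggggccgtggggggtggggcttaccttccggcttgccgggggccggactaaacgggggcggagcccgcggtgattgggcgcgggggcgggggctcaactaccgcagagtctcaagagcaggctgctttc
Bcl2: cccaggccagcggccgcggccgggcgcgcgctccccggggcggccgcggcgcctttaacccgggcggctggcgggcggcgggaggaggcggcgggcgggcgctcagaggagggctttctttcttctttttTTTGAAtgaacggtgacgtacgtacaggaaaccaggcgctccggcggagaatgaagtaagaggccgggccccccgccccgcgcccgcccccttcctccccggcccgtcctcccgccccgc
The 5 motifs searched on both strands were GTAAACA (a forkhead, or FOXO, core), TTCNNNGAA (a STAT palindrome), TGANTCA (AP-1), CACGTG (E-box) and TTTGAA (the cell cycle homology region). The Bcl2l11 window has 72% G and C and held 1 GTAAACA, which begins at -227 from the start and is present in 3.17% of the 32851 promoter windows of this length. The Bcl2 window has 74.8% G and C and held 1 TTTGAA, beginning at -120, a motif present in 16% of all windows. In all, 15 windows of 9 members were searched, Pmaip1 not among them. GTAAACA was found in 1 further window, of Bbc3 at -167, and TTTGAA in those of Mcl1 at -242 and Bax at -193. CACGTG, in 6.02% of all windows, was found in 1 window of Bbc3 and in that of Bax. TTCNNNGAA (7.02% of all windows) and TGANTCA (6.75%) had no match in the 15 windows. Matches of different motifs did not overlap. A match here describes letters in a window and no binding was measured.

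Values are the deposited log2 probe set values, in which a difference of 1 is a doubling. Array medians ran from 5.20 to 5.26. A difference counts as past the test when its adjusted p from limma, over all probe sets, is under 0.05. Levels of different probe sets are not compared, since probe sets differ in how strongly they bind. The transcripts targeted by the depletion were not lower past the test: Kdm4a, which encodes Jmjd2a, differed by 0.11 at day 1 (adjusted p = 0.622) and -0.12 at day 3 (adjusted p = 0.361) on the arrays labelled Jmjd2a-depleted. Kdm4c, which encodes Jmjd2c, differed by 0.19 (adjusted p = 0.406) and 0.03 (adjusted p = 0.909) on those labelled Jmjd2c-depleted. Groups are therefore named by their labels. The day 3 control arrays stood apart: their replicates correlated at 0.9887, against 0.9959 to 0.9978 in the other groups, and their root mean square SD over probe sets was 0.259, against 0.115 to 0.157. The labels give both of them the same short sample name, that of replicate 1, and tell them apart by title only. Their values were not identical. Over all probe sets, the day 3 arrays labelled Jmjd2a- and Jmjd2c-depleted correlated more with the day 1 controls (0.9967 and 0.9954) than with the day 3 controls (0.9849 and 0.9876).

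Bcl2l11 and Pmaip1, both BH3-only genes, were highest on the day 3 control arrays and lower on the day 3 arrays of both labelled depletions. Mcl1, which encodes a short-lived anti-apoptotic protein, was higher on the day 1 arrays of both labelled depletions than on the day 1 controls. The main probe set of Bcl2 fell from day 1 to day 3 in the control cells and in both labelled depletions, with calls near the threshold. For Bbc3, Bid, Bak1 and Bcl2l1, no main probe set passed the test in any comparison.

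From day 1 to day 3 in control cells, 3 of the 9 measured genes rose (Bcl2l11, Pmaip1 and Bad) and 1 fell (Bcl2), while 8.46% of all probe sets rose and 15.4% fell. Members are counted by main probe set. Of the main probe sets of all 18193 genes, 2046 rose and 3121 fell. The median difference of the 9 genes was 0.30, against 0.05 over those of all 18193 genes. At day 1, the arrays labelled Jmjd2a-depleted had 1 member higher than the controls (Mcl1) and 0 lower, where 4.23% of all probe sets were higher and 3.25% lower. Those labelled Jmjd2c-depleted had 1 higher (Mcl1) and 1 lower (Bcl2l11), where 5.32% of all probe sets were higher and 5.69% lower. Of the main probe sets of all 18193 genes, 1041 were higher and 837 lower past the test for Jmjd2a, and 1377 and 1338 for Jmjd2c. The medians of the 9 members were -0.04 and 0.06, against -0.04 and -0.03 over all genes. At an unadjusted p under 0.05, limma gave 4 of the 9 members in each of these day 1 comparisons. Of all 45037 probe sets, 8635 had such a p for Jmjd2a and 9861 for Jmjd2c.

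At day 3, Bcl2l11 and Pmaip1 were the 2 members lower on the arrays labelled Jmjd2a-depleted, and 0 were higher, where 7.11% of all probe sets were lower and 13.7% higher. The same 2 genes were lower and 0 higher on those labelled Jmjd2c-depleted, where 5.04% were lower and 9.28% higher. Of the main probe sets of all 18193 genes, 1645 were lower and 2903 higher past the test for Jmjd2a, and 1311 and 2203 for Jmjd2c. The medians of the members were -0.14 and -0.13, against -0.05 and -0.01 over all genes. At an unadjusted p under 0.05, limma gave 3 members for Jmjd2a and 4 for Jmjd2c. Of all 45037 probe sets, 15301 had such a p for Jmjd2a and 11372 for Jmjd2c. Both comparisons and the control time course share the day 3 control arrays, so the 3 are not independent of each other.

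Over time within the arrays labelled Jmjd2a-depleted, 1 member rose (Bcl2l11) and 2 fell (Bcl2 and Mcl1), where 2.26% of all probe sets rose and 3.35% fell. The arrays labelled Jmjd2c-depleted had the same calls, where 3.27% rose and 5.36% fell. Of the probe sets called there over the whole array, 37.9% were higher, a share that became 49.3% after quantile normalization. Of the main probe sets of all 18193 genes, 620 rose and 785 fell over time for Jmjd2a, and 865 and 1244 for Jmjd2c. Median differences of the members were 0.14 and 0.05, against 0.04 and 0.06 over all genes. The difference between depleted and control arrays changed from day 1 to day 3, past the test, for Mcl1, Bcl2l11 and Pmaip1 in both labelled depletions. These 3 moved downward and 0 members moved upward. For Jmjd2a 6.36% of all probe sets moved downward and 12% upward, and for Jmjd2c 6.84% and 10.7%. At an unadjusted p under 0.05, limma gave 4 members in each. Of all 45037 probe sets, 13016 had such a p for Jmjd2a and 12226 for Jmjd2c. Of the main probe sets of all 18193 genes, 1597 moved downward and 2642 upward past the test for Jmjd2a, and 1756 and 2390 for Jmjd2c. The medians of the members in that contrast were -0.10 and -0.15, against -0.02 and 0.00 over all genes.

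Between the 2 labelled depletions, limma called 0 members, and 0% of all probe sets in either direction, at day 1 and at day 3. At an unadjusted p under 0.05 there were 1081 probe sets at day 1 and 2571 at day 3, and 0 members on either day. The largest member difference was 0.19 for Pmaip1 at day 1, with a 95% interval from -0.13 to 0.51.

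**Figure D1:**
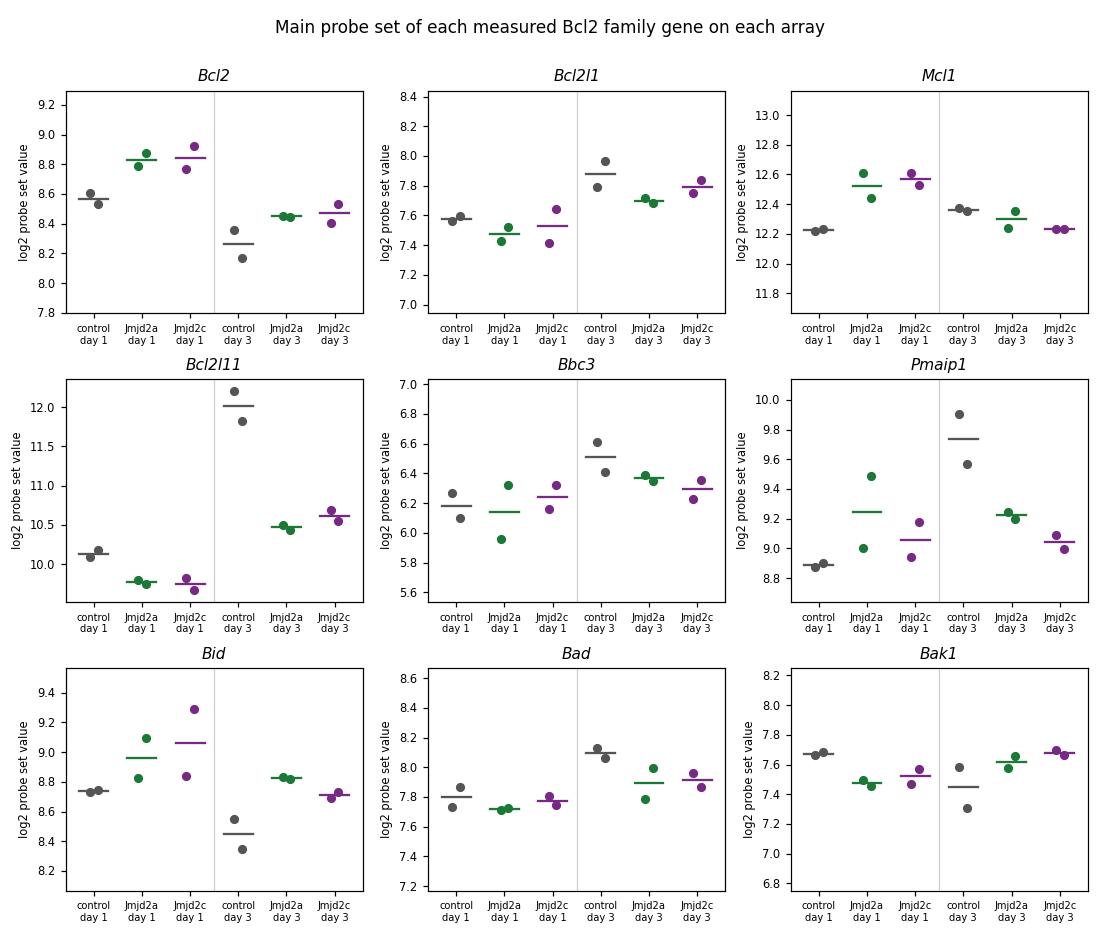
Main probe set of each of the 9 measured genes on every array. The vertical axis is the deposited log2 value, with its own range in each panel; points are single arrays, the bar is the mean of the 2 arrays, and the grey line separates day 1 from day 3. Bcl2l11 sits at 12.21 and 11.82 on the day 3 controls and between 9.67 and 10.69 on the other 10 arrays.

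**Figure D2:**
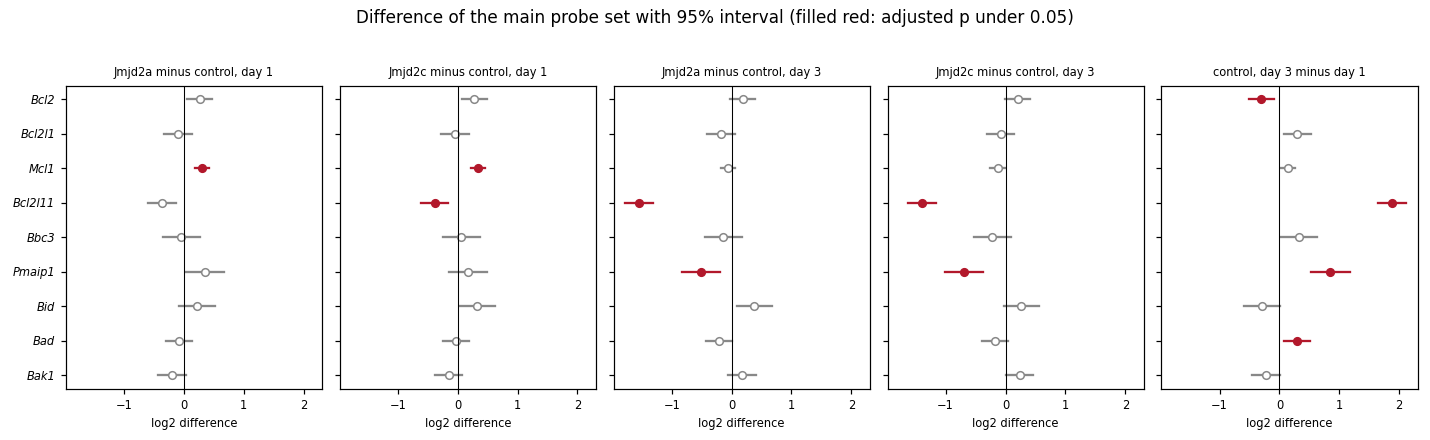
Differences of the 9 main probe sets in 5 comparisons, on the log2 scale. Circles are differences of group means, bars are 95% intervals from limma, and filled red marks an adjusted p under 0.05. Bcl2l11 at -1.55 and -1.40 in the day 3 comparisons and 1.88 over time in control cells lies farthest from 0.

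Among the anti-apoptotic genes, Mcl1 was at 12.22 and 12.23 on the day 1 controls, 12.61 and 12.44 on the day 1 arrays labelled Jmjd2a-depleted, and 12.61 and 12.53 on those labelled Jmjd2c-depleted. All 4 depleted arrays of day 1 were above both controls. At day 3 it was 12.37 and 12.36 on the controls, 12.24 and 12.36 on the arrays labelled Jmjd2a-depleted, and 12.23 and 12.23 on those labelled Jmjd2c-depleted. At day 3 no depleted array was above the controls, and 1 lay beside them. The day 1 difference was 0.30 ± 0.06 (SE) for Jmjd2a (1.23-fold, adjusted p = 0.00599) and 0.34 for Jmjd2c (1.27-fold, adjusted p = 0.00191). At day 3 the differences were -0.06 (adjusted p = 0.442) and -0.13 (adjusted p = 0.151). The change of the difference between the days was -0.36 for Jmjd2a (adjusted p = 0.00595) and -0.48 for Jmjd2c (adjusted p = 0.00102). Within the arrays labelled depleted, Mcl1 fell from day 1 to day 3 by 0.23 (Jmjd2a, adjusted p = 0.0338) and by 0.34 (Jmjd2c, adjusted p = 0.00239). In the controls its change was 0.14 (adjusted p = 0.0929).

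Mcl1 had 6 probe sets, and 5 of them were higher past the test on the day 1 arrays of each labelled depletion. The exception, 1416881_at, differed by 0.16 and 0.17. Of the 5 other probe sets, 4 had larger differences than the main one in these comparisons, up to 0.62 for Jmjd2a and 0.69 for Jmjd2c. Replicate 1 was above replicate 2 on every Mcl1 probe set in both day 1 depleted groups. On 1437527_x_at the arrays labelled Jmjd2c-depleted read 11.83 and 11.52. Replicate 1 of the day 1 arrays labelled Jmjd2a-depleted carried much of the difference of its group: on that probe set it read 11.85, replicate 2 read 11.32 and the controls 10.99 and 11.04. The Jmjd2a difference of the main probe set lost its call without that replicate (0.22, adjusted p = 0.0549), without day 1 control replicate 1 (0.29, adjusted p = 0.0655) and without day 1 control replicate 2 (0.31, adjusted p = 0.0581). The Jmjd2c difference passed the test whichever single array was left out. The fall over time in the arrays labelled Jmjd2a-depleted lost its call when any 1 of 7 arrays was left out (adjusted p from 0.0641 to 0.291), among them day 1 replicate 1 (-0.14) and day 3 replicate 1 (-0.17) of that group. The mean of the 6 Mcl1 probe sets differed by 0.46 and 0.52 at day 1, and fell over time by 0.40 (adjusted p = 0.0568) and 0.48 for Jmjd2a and Jmjd2c. With no intensity trend in limma's prior variance, the Jmjd2a difference at day 1 (adjusted p = 0.0958), both falls (0.24 and 0.0559) and the change between the days for Jmjd2a (0.0819) lost their calls.

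For Bcl2, the founding anti-apoptotic member, the main probe set read 8.60 and 8.53 on the day 1 controls and 8.36 and 8.17 on the day 3 controls. On the arrays labelled Jmjd2a-depleted it read 8.79 and 8.88 at day 1 and 8.45 and 8.45 at day 3. On those labelled Jmjd2c-depleted it read 8.77 and 8.92 at day 1 and 8.40 and 8.53 at day 3. In each of the 3 conditions both day 3 arrays were below both day 1 arrays. The change over time was -0.30 in controls (adjusted p = 0.0355), -0.38 for Jmjd2a (adjusted p = 0.0369) and -0.38 for Jmjd2c (adjusted p = 0.0294). At the same time point the depleted arrays were above the controls without passing the test, by 0.26 and 0.28 at day 1 (adjusted p = 0.134 and 0.0906) and by 0.19 and 0.21 at day 3 (adjusted p = 0.188 and 0.2). These 3 calls were near the threshold: each was lost when any 1 of 7 (controls and Jmjd2c) or 8 (Jmjd2a) of the 12 arrays was left out, with adjusted p up to 0.208 in controls, 0.237 for Jmjd2a and 0.245 for Jmjd2c, and all 3 were lost with no intensity trend. In controls the change was -0.15 after quantile normalization (adjusted p = 0.237) and -0.21 without day 3 control replicate 2 (adjusted p = 0.133).

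Of the other 4 Bcl2 probe sets, 1440770_at moved the most. It read 5.73 and 5.89 on the day 1 controls, 4.77 and 4.80 on the day 3 controls, and between 5.47 and 5.76 on the 4 day 3 depleted arrays. Its day 3 controls were below all 10 other arrays. The differences were -1.02 over time in controls (adjusted p = 0.000149), 0.86 for Jmjd2a at day 3 (adjusted p = 0.00077) and 0.74 for Jmjd2c at day 3 (adjusted p = 0.0026). Within the arrays labelled Jmjd2c-depleted, 1422938_at fell by 0.95 over time (adjusted p = 0.00159) and 1437122_at by 0.60 (adjusted p = 0.0347). At day 1, 1422938_at was higher for Jmjd2c by 0.58 (adjusted p = 0.0248), and at day 3, 1443837_x_at was higher for Jmjd2a by 0.61 (adjusted p = 0.0495). Over time within the arrays labelled Jmjd2a-depleted, 1 of the 5 probe sets passed the test, the main one. The changes of the 5 there ran from -0.38 to 0.01. The probe sets of Bcl2 thus gave unequal differences.

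Bcl2l1 had a main probe set at 7.56 and 7.59 on the day 1 controls and 7.79 and 7.96 on the day 3 controls. The day 3 controls were the higher pair, with a difference of 0.30 that missed the threshold (adjusted p = 0.0605). All other arrays lay between 7.42 and 7.84. Its differences between depleted and control arrays were -0.10 and -0.05 at day 1 and -0.18 and -0.08 at day 3, with adjusted p from 0.266 to 0.897. Its 3 other probe sets had means below the median probe set and no call in any comparison.

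**Figure D3:**
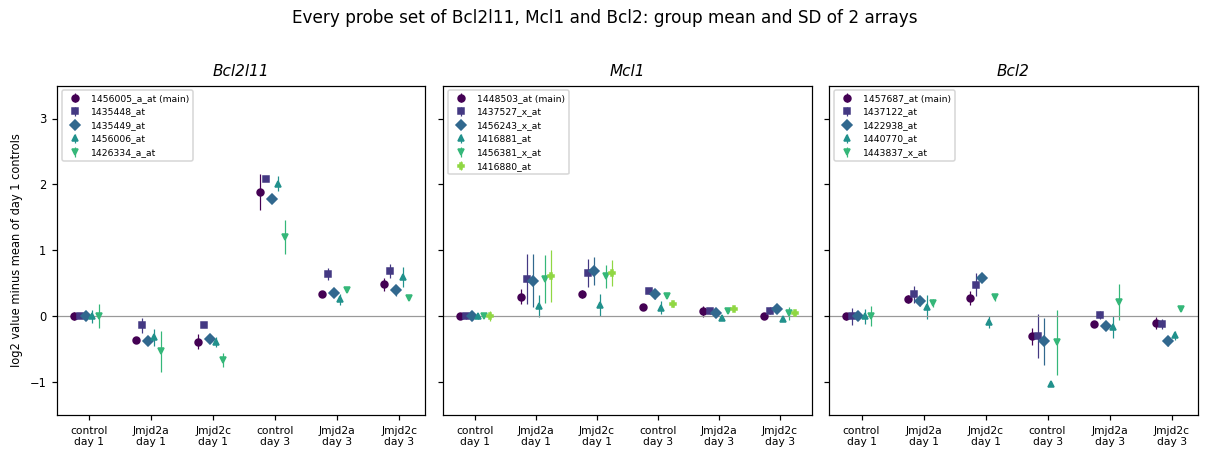
Every probe set of Bcl2l11, Mcl1 and Bcl2 in the 6 groups. The vertical axis is the group mean minus the mean of the day 1 controls on the log2 scale, and bars are the SD of the 2 arrays. The 5 Bcl2l11 probe sets rise together on the day 3 controls, by 1.20 to 2.09, while those of Bcl2 spread from -1.02 to -0.30 there.

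Among the BH3-only genes, Bcl2l11 was at 10.09 and 10.17 on the day 1 controls and at 12.21 and 11.82 on the day 3 controls. On the arrays labelled Jmjd2a-depleted it was at 9.80 and 9.74 on day 1 and at 10.50 and 10.43 on day 3. On those labelled Jmjd2c-depleted it was at 9.82 and 9.67 on day 1 and at 10.69 and 10.55 on day 3. The day 3 controls stood above the other 10 arrays, the 4 day 1 depleted arrays were the lowest, and on neither day did a depleted group overlap with its controls. In control cells the rise from day 1 to day 3 was 1.88 ± 0.11 (SE), or 3.69-fold (95% interval 3.15 to 4.33, adjusted p = 3.21e-07). The rise was 0.70 (1.62-fold, adjusted p = 0.00211) in the arrays labelled Jmjd2a-depleted and 0.87 (1.83-fold, adjusted p = 0.000303) in those labelled Jmjd2c-depleted. At day 3 Bcl2l11 was lower than in controls by 1.55 ± 0.11 (SE) for Jmjd2a (2.92-fold, adjusted p = 3.12e-06) and by 1.40 for Jmjd2c (2.63-fold, adjusted p = 6.93e-06). In RNA from whole cultures, fewer cells of a type and less RNA per cell cannot be told apart.

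At day 1 Bcl2l11 differed by -0.39 for Jmjd2c (adjusted p = 0.0353) and by -0.36 for Jmjd2a (adjusted p = 0.0616, or 0.0216 with only the day 1 arrays in the fit). The change of the difference between the days was -1.19 for Jmjd2a (adjusted p = 0.000178) and -1.01 for Jmjd2c (adjusted p = 0.000499). In each, 4 of 5 probe sets passed that test, and the exception, 1426334_a_at, changed by -0.26. The 5 probe sets moved alike over time and at day 3. Over time in controls they rose by 1.20 to 2.09, at day 3 they were lower by 0.80 to 1.75 for Jmjd2a and by 0.93 to 1.42 for Jmjd2c, and all 5 passed the test each time. At day 1, 1 of 5 passed for Jmjd2a and 3 of 5 for Jmjd2c, all lower. The day 3, time course and change of difference calls of the main probe set held under every alternative run. The day 1 call for Jmjd2c was lost when any 1 of 8 of the 12 arrays was left out (adjusted p from 0.0539 to 0.237), including each day 1 control and each array of the group, and with no intensity trend (adjusted p = 0.0997).

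Pmaip1, which encodes the BH3-only protein Noxa, a binder of Mcl1, had 1 probe set. It read 8.87 and 8.90 on the day 1 controls and 9.91 and 9.57 on the day 3 controls. On the arrays labelled Jmjd2a-depleted it read 9.002 and 9.48 at day 1 and 9.25 and 9.20 at day 3. On those labelled Jmjd2c-depleted it read 8.94 and 9.18 at day 1 and 9.09 and 8.999 at day 3. Both day 3 controls were above every other array. The rise in controls was 0.85 ± 0.15 (SE), or 1.80-fold (adjusted p = 0.00114), against -0.02 and -0.01 over time in the labelled depletions. At day 3 the differences from controls were -0.52 for Jmjd2a (adjusted p = 0.0271) and -0.69 for Jmjd2c (adjusted p = 0.00685), and at day 1 they were 0.36 (adjusted p = 0.199) and 0.17 (adjusted p = 0.611). The change of the difference between the days was -0.87 for each (adjusted p = 0.0111 and 0.0116). The Jmjd2a call at day 3 was lost with array weights (adjusted p = 0.0803) or no intensity trend (0.0515), without day 3 control replicate 1 (-0.35, adjusted p = 0.0927) and without replicate 1 or 2 of its own group (0.0988 and 0.153). The Jmjd2c call was lost without replicate 2 of its group (-0.65, adjusted p = 0.0767). The change between the days was lost for Jmjd2a without day 3 replicate 2 (adjusted p = 0.0522), and for Jmjd2c without day 1 replicate 2 (adjusted p = 0.0552) or day 3 replicate 2 (adjusted p = 0.0573).

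Bid, whose protein links death receptors to mitochondria once cleaved by caspase-8, read 8.73 and 8.74 on the day 1 controls and 8.55 and 8.35 on the day 3 controls. It read 8.82 and 9.09 (Jmjd2a) and 8.84 and 9.29 (Jmjd2c) on the day 1 depleted arrays. On the day 3 depleted arrays it read 8.83 and 8.82 (Jmjd2a) and 8.69 and 8.73 (Jmjd2c). The day 3 controls were the lowest pair, and replicate 2 of each day 1 depleted group was the highest array of its group. The difference at day 3 was 0.38 for Jmjd2a (95% interval 0.08 to 0.67, adjusted p = 0.0696) and 0.26 for Jmjd2c (adjusted p = 0.259). A second probe set, 1447873_x_at, was higher by 0.65 for Jmjd2a at day 3 (adjusted p = 0.0331), while 1448560_at had no call. At day 1 the Bid difference for Jmjd2c was 0.32 (adjusted p = 0.175), and 0.55 without replicate 1 of that group. The larger value rests on replicate 2 alone, the highest of the 12 arrays. The differences of the 3 Bid probe sets in that comparison ran from 0.01 to 0.32.

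Bad, a BH3-only protein whose binding is controlled by phosphorylation, read 7.74 and 7.87 on the day 1 controls and 8.13 and 8.06 on the day 3 controls. Both day 3 controls were above the other 10 arrays, which lay between 7.71 and 7.997. The rise in controls was 0.30 (1.23-fold, adjusted p = 0.0498) on the main probe set and 0.42 on 1416583_at (adjusted p = 0.0109). The main call lay at the threshold: it held under 6 of 22 alternatives and was lost when any 1 of 11 of the 12 arrays was left out (adjusted p up to 0.3). Bbc3, encoding the p53 target Puma, had 1 probe set that read 6.27 and 6.10 on the day 1 controls and 6.61 and 6.41 on the day 3 controls. The 8 depleted arrays lay between 5.96 and 6.39 and overlapped with the day 1 controls. The change over time in controls was 0.33 (95% interval 0.02 to 0.64, adjusted p = 0.118), and its differences between depleted and control arrays were within 0.22 of 0.

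Of the effectors, only Bak1 was measured. Its main probe set read 7.66 and 7.68 on the day 1 controls and 7.58 and 7.31 on the day 3 controls. The day 3 arrays read 7.58 and 7.66 for Jmjd2a and 7.70 and 7.66 for Jmjd2c, and replicate 2 of the day 3 controls was the lowest of the 12. The change over time in controls was -0.23 (adjusted p = 0.147), and the day 3 differences were 0.17 (adjusted p = 0.282) and 0.23 (adjusted p = 0.192). Without day 3 control replicate 1, the day 3 Bak1 differences became 0.31 and 0.37, and the change over time in controls -0.365. That fit leaves replicate 2, the lowest array, as the only day 3 control, so these larger values rest on 1 array. The second probe set, 1425716_s_at, with a mean below that of the median probe set, read 5.54 and 5.18 on the day 1 controls and 4.90 and 4.15 on the day 3 controls, a change of -0.83 (adjusted p = 0.0177).

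Over the 29 probe sets of the family, 8 rose and 3 fell in controls over time, where 8.46% of all 45037 rose and 15.4% fell. At day 1, 5 were higher and 1 lower for Jmjd2a, against 4.23% and 3.25% of all. For Jmjd2c 6 were higher and 3 lower, against 5.32% and 5.69%. At day 3, 3 were higher and 6 lower for Jmjd2a, against 13.7% and 7.11%. For Jmjd2c 1 was higher and 6 lower, against 9.28% and 5.04%. Probe sets of 1 gene share their transcript and are not independent.

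Markers of other cell types also differed between the groups. The summed level of 11 measured macrophage and monocyte markers of 12 (their values returned to the linear scale) was 768 to 776 on the day 1 controls and 3620 to 3640 on the day 3 controls. It was 4600 to 6280 (Jmjd2a) and 4350 to 10300 (Jmjd2c) on the day 1 depleted arrays, and 1330 to 1470 and 1340 to 1570 on the day 3 depleted arrays. All 11 were higher past the test on the day 1 depleted arrays and in controls over time. Mcl1 was highest on the day 1 depleted arrays, where these sums were highest, and their part in that result was not tested. Bcl2l11 was lowest on the same arrays and highest on the day 3 controls. The sum of 5 measured NK cell markers of 6 was highest on the day 3 controls, at 2250 to 2340, against 175 to 214 on the day 1 controls, 504 to 639 on the day 3 depleted arrays and 558 to 1020 on the day 1 depleted arrays. Gzma, with a mean of 10.87, made the largest part of that sum on the day 3 controls, and Nkg7 and Klrk1 were also highest there. Ncr1 was highest on the day 1 depleted arrays, with means of 4.84 and 4.999 against 4.36 on the day 3 controls. Klra8 was highest there too, with 5.72 and 5.76 against 5.13. The NK cell sum moved with Bcl2l11 and Pmaip1 on the day 3 controls, and its part in their results was not tested.

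B cell markers, 8 measured of 9, summed to 11300 to 11700 on the day 1 controls, 15400 to 15800 on the day 3 controls and 12100 to 12400 on the day 3 depleted arrays. On the day 1 depleted arrays they reached 24000 to 30100, with 7 of 8 higher past the test in each comparison, led by Fcer2a (4.96 and 5.29) and Cr2 (3.92 and 4.04). Plasma cell markers, 6 measured of 6, summed to 10800 to 11300 on the day 1 controls, 20000 to 20100 on the day 3 controls and 12800 to 13400 on the day 3 depleted arrays. On the day 1 depleted arrays they summed to 14200 to 15700 (Jmjd2a) and 13800 to 17300 (Jmjd2c), with 3 of 6 higher and 1 lower past the test in each. In controls over time 3 plasma cell markers rose past the test and 1, Sdc1, fell by 1.20. At day 3 Sdc1 was the 1 marker higher on the depleted arrays, by 1.11 and 1.07, and 3 were lower in each comparison. The sum of 6 dendritic cell markers was highest on the day 3 controls as well, at 679 to 811, against 305 to 449 on the other arrays. Xcr1 lay below the median probe set on all arrays. In controls over time 4 of the 6 rose past the test, led by Flt3 (2.45), and 1 fell, Siglech (-0.48). Siglech was lowest on the day 3 controls, with a mean of 5.38 against 5.77 to 6.76 in the other groups. Neutrophil markers reached 3370 and 6330 on 1 array of each day 1 depleted group, against 321 and 316 on the other array of each, 163 to 543 on the controls and 227 to 266 on the day 3 depleted arrays, with Mpo and Elane below the median probe set on all arrays. T cell markers, 7 measured of 8, summed to 598 to 610 on the day 1 controls, 1050 to 1490 on the day 1 depleted arrays, 980 to 1030 on the day 3 controls and 701 to 750 on the day 3 depleted arrays. At day 1, 3 of the 7 were higher past the test in each labelled depletion (Cd2, Cd3g and Cd3d) and 4 had no call. Cd2, with means of 9.72 and 10.03 on the day 1 depleted arrays, made the largest part of the T cell sum there. Erythroid and platelet markers, 5 measured of 7, summed to 424 to 665 on the day 1 depleted arrays, against 166 to 186 on the controls of both days and 169 to 181 on the day 3 depleted arrays. Of the 5, 2 were higher past the test at day 1 in each labelled depletion, among them Slc4a1 (3.91 and 4.11), the red cell anion exchanger, while Hba-a1 and Pf4 lay below the median probe set on all arrays. Both sums were highest on the day 1 depleted arrays, where Mcl1 was highest and Bcl2l11 lowest. The 12 immediate early genes summed to 15700 to 20600 on the day 1 depleted arrays, 8630 to 8720 on the day 1 controls, 5030 to 5660 on the day 3 controls and 7980 to 8200 on the day 3 depleted arrays. They did not all move alike. At day 1, 7 were higher past the test in each labelled depletion and 1 was lower, Egr2 (-0.37 and -0.41). In controls over time 2 rose and 6 fell. The part of any of these lists in the differences of the members was not tested.

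Of 15 further Bcl2 family genes, 10 were measured. Bmf, a BH3-only gene, was the 1 gene higher past the test on the day 1 arrays of both labelled depletions, by 1.58 (adjusted p = 0.0174) and 1.34 (adjusted p = 0.0299). Its mean was 5.18 ± 0.14 (SD, n = 2) on the day 1 controls, 6.77 ± 0.83 for Jmjd2a and 6.52 ± 0.79 for Jmjd2c, so the replicates within each depleted group lay far apart. At day 3 in the arrays labelled Jmjd2a-depleted, Bnip3 (0.75) and Bcl2l13 (0.62) were higher and Bcl2l14 (-0.57) was lower, and Bnip3 was higher (0.69) for Jmjd2c. In controls over time Bcl2l14 rose by 0.65 and Bnip3 fell by 0.89. The medians of the 10 genes were between -0.09 and 0.06 in these 5 comparisons.

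Downstream of the mitochondrion, 8 of 10 apoptosome and caspase genes were measured. In controls over time 3 rose and 2 fell, with a median of 0.16: Casp9, the initiator caspase of the apoptosome, rose by 0.95 and its platform Apaf1 by 0.50, while the executioner Casp6 fell by 1.01. At day 3, Casp9 and Apaf1 were lower and Casp6 higher on the arrays of both labelled depletions (Casp9 -0.55 and -0.76, Apaf1 -0.47 and -0.38, Casp6 1.05 and 0.85). That was 1 higher and 2 lower for Jmjd2a (median -0.11), and 1 higher and 3 lower for Jmjd2c (median -0.18). At day 1, 1 of 8 was lower for Jmjd2c, Cycs, which encodes cytochrome c (-0.21), and the differences for Jmjd2a ran from -0.21 to 0.28. Adjusted p for these named genes ran from 0.000113 to 0.0225.

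Inhibitors of apoptosis and their antagonists had 8 of 9 genes measured. Birc5, encoding survivin, a protein also needed for cell division, rose in controls by 1.34 and Birc2 by 1.18, 2 of 3 that rose, while 1 fell. At day 3 Birc5 was lower by 0.96 and 0.98 and Birc2 by 0.87 and 1.01 on the arrays labelled Jmjd2a- and Jmjd2c-depleted, with 1 gene higher and 3 lower in each. At day 1 Birc3, an NF-kB target, was higher by 0.65 and 0.69 and Birc5 lower by 0.33 and 0.38, the only 2 calls in each comparison. Of 8 measured death receptor genes, 2 rose and 1 fell in controls, and Fas rose the most, by 1.52 (adjusted p = 8.51e-05). Fas was the 1 gene of that list that was lower at day 3, by 1.02 for Jmjd2a (adjusted p = 0.00212) and 1.26 for Jmjd2c (adjusted p = 0.000602).

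Of 12 genes of p53 and its targets 11 were measured, with 5 rising and 1 falling in controls over time (median 0.36), 1 higher and 5 lower at day 3 for Jmjd2a (median -0.26) and 1 higher and 4 lower for Jmjd2c (median -0.37). Trp53inp1 rose by 1.54, Zmat3 by 0.92 and Ccng1 by 0.87 in controls, and at day 3 they were lower by 1.08, 0.79 and 0.70 for Jmjd2a and by 1.10, 0.72 and 0.69 for Jmjd2c. At day 1, 2 genes were higher and 1 lower in each labelled depletion, with Trp53inp1 higher by 1.72 and 1.53. Of 16 regulators of the family, 3 were higher at day 1 in each: Foxo3 (0.92 and 0.92) and Foxo1 (0.31 and 0.25), forkhead factors known to activate Bcl2l11, and Ddit3 (0.52 and 0.46), a stress-induced factor. In controls over time 3 rose and 7 fell, among them Foxo1, which rose by 0.32, and Foxo3, which fell by 0.55, Stat3, which fell by 0.83, and E2f1, which fell by 0.88. At day 3 E2f1 was higher by 0.74 and 0.73 and Stat3 by 0.84 and 0.70, with 6 higher and 1 lower for Jmjd2a and 2 higher and 2 lower for Jmjd2c. Of 10 mitochondrial membrane and dynamics genes, 4 were lower at day 1 for Jmjd2a and 5 for Jmjd2c, Vdac2 among them (-0.20 and -0.18), and 1 rose and 3 fell in controls, where Vdac1 rose by 0.45.

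Bcl2l11 (range of the 6 group means 2.27), Pmaip1 (0.85) and Bid (0.62) varied the most among the 9 members. For each, the genes most like it were ranked by Pearson's correlation over the 6 group means, among 1130 genes (1131 for Pmaip1 and Bid) above the median level with a range of at least 1. These points share arrays with the members and are few, so the correlations describe a shape only. Closest to Bcl2l11 were Kif23, a kinesin of cell division (r = 0.9988), Cks2, a subunit of cyclin-dependent kinases (0.9987), Raph1, an actin regulator (0.9984), and Ncapd2, a condensin subunit (0.9976). Kif23 was at 8.12 on the day 1 controls, 9.48 on the day 3 controls, and 8.43 and 8.46 on the day 3 depleted arrays. Closest to Pmaip1 were Il7r, a cytokine receptor chain (0.9823), Csdc2 (0.978), Ahnak, a large scaffold protein (0.9763), and Sec11c, of the signal peptidase (0.9735). Closest to Bid were Neu1, a lysosomal sialidase (0.994), Gpd1l (0.9929), Galnt10, a glycosyltransferase (0.9927), and Sh2b3, a signalling adaptor (0.9902). The genes near Bcl2l11 and Pmaip1 peaked on the day 3 controls, and those near Bid were lowest there and highest on the day 1 depleted arrays. These shared peaks follow from how the genes were chosen. Bid itself had no call on its main probe set in any comparison.

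**Figure D4:**
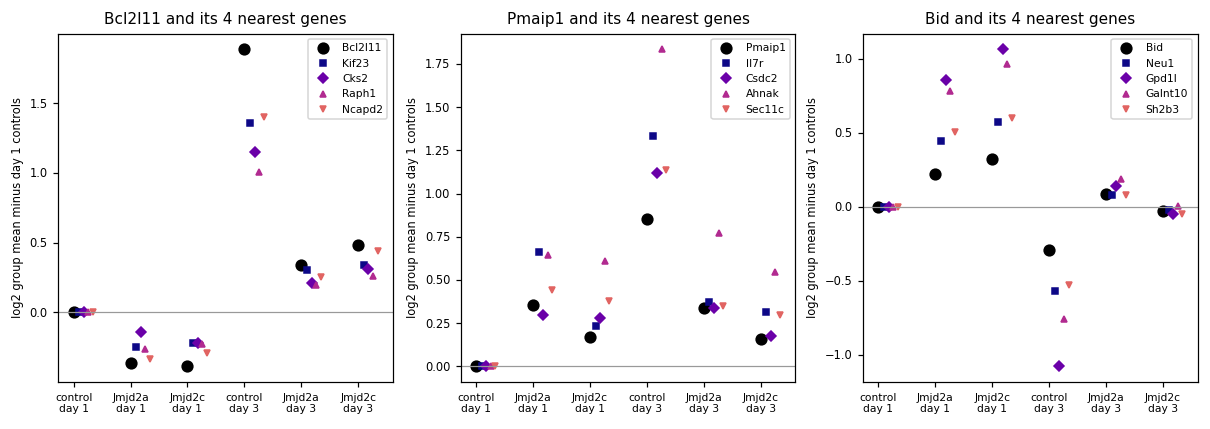
Bcl2l11, Pmaip1 and Bid with the 4 genes nearest to each. The vertical axis is the log2 group mean minus the mean of the day 1 controls, for each of the 6 groups; symbols are genes. Bcl2l11 and Kif23 peak on the day 3 controls, and Bid and Neu1 are lowest there. The nearest genes were chosen for their correlation with the member over these 6 means.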

How the data were processed

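Labelled RNA of 12 samples was hybridised to Affymetrix mouse arrays, with 2 arrays in each of 6 groups. The authors deposited log2 probe set values in a series matrix; the background correction and normalization behind them are not given in the sources used here. Nothing was normalized again. The 64 control probe sets were left out, and 45037 probe sets were tested with limma 3.58.1 in R 4.3.3, in 1 model of 6 group means with an intensity trend in the prior variance (6 residual and 5.85 prior degrees of freedom). Each of 11 contrasts was adjusted by the Benjamini-Hochberg method over all probe sets. With 2 arrays a group, the number of arrays limits the precision. Of all probe sets, 34945 name 1 gene in the platform annotation, which can be old.

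Named genes are the members, up to 3 genes of each other list with the smallest p among those past the test, with Foxo3 over time in controls added after its values were seen, and the 4 nearest genes of the 3 members of widest range. Members and lists were chosen with earlier results of these data known. Alternatives covered normalization, centring, filters, prior variance, array weights, probe set choice, threshold, fold floor, samples and single arrays left out. The fitting was tested on simulated data. Same-numbered arrays deviated together in 1 of 15 pairs of groups, with a correlation of deviations of 0.392. That was the only 1 over 0.1, and the lowest was -0.111. Promoter windows were read from a RefSeq table on GRCm38.p6.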

Additional observations from a re-analysis of the deposited data

Results flagged for a closer look

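The difference between arrays labelled depleted and control arrays changed between the days for 3 genes of the family by their main probe sets. The test was that of the change itself in limma. Among the other probe sets, 1 of Bcl2 in each labelled depletion and 1 of Bak1 for Jmjd2c changed upward past it. For Bcl2l11 the day 3 difference minus the day 1 difference was -1.19 for Jmjd2a (adjusted p = 0.000178) and -1.01 for Jmjd2c (adjusted p = 0.000499), and 4 of its 5 probe sets passed in each. For Pmaip1 it was -0.872 (adjusted p = 0.0111) and -0.865 (adjusted p = 0.0116), and for Mcl1 -0.364 (adjusted p = 0.00595) and -0.476 (adjusted p = 0.00102). Mcl1 was above the controls on the day 1 depleted arrays and not on the day 3 ones, while Bcl2l11 was below them on both days. The day 1 Bcl2l11 difference did not pass the test for Jmjd2a (adjusted p = 0.0616), and its call for Jmjd2c held under 13 of 23 alternatives. The day 1 Mcl1 call for Jmjd2a held under 18 of 23. Both depletions are set against the same control arrays.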

How the results depend on the processing

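Of 2232 values under alternatives for 99 differences of members, 2041 kept direction and call, 89 lost the call, 52 gained one, 50 turned sign with no call on either side, and 0 reversed. Of 23 calls, 8 held under every alternative and 15 were lost under at least 1. The number of members called for Jmjd2a at day 1, 1 as reported, became 2 with quantile normalization, dim probe sets left out, one probe set per gene, the mean of probe sets, a threshold of 0.1 or only arrays of that day, 3 with array weights, and 0 with no intensity trend or a floor of 1.5-fold. For Jmjd2c at day 1 it went from 2 to 1 with no trend and 0 with the floor. For Jmjd2a at day 3 it went from 2 to 1 with no trend, array weights or the floor and to 4 with the mean of probe sets. In controls over time it went from 4 to 2 with no trend, array weights or the floor. Over time it went from 3 to 1 with no trend or the floor in both labelled depletions, and also with the mean of probe sets for Jmjd2a. The causes were not tested.

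Leaving out 1 array at a time gave 0 to 3 called members for Jmjd2a and 1 to 3 for Jmjd2c at day 1, 1 to 4 for each at day 3, and 2 to 5 in controls over time. It gave 1 to 3 over time for Jmjd2a and 2 to 4 for Jmjd2c, 2 to 4 for the change between the days in each, and 0 to 0 between the depletions. A group left with 1 array was assumed to vary like the others. With the replicate block, the count for Jmjd2a at day 1 was 2, with Bcl2l11 added. In controls over time the Bad call was lost and Bcl2l1 gained one. The labels state no pairing of the arrays, and 1 of the 15 pairs of groups had a correlation of deviations over 0.1 (0.392).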
